A study of Mus musculus with 18 samples.

Results

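The response of stroma alone to FGF2 was examined in pure cultures of PA6 cells, a mouse stromal line with preadipocyte character that is used as a feeder layer for differentiating stem cells. Confluent PA6 layers were kept for 3 days in serum-free medium, either with nothing added (-GFs, 3 cultures) or with recombinant FGF2 at 20 ng/ml (FGF2, 3 cultures), and gene expression was read on Illumina MouseWG-6 v2.0 bead arrays. These are 6 of the 18 arrays of the study. The other arrays, used here only to show where this response differs, are PA6 cultures with BMP4 at 10 ng/ml and co-cultures of mouse embryonic stem cells with PA6 cells (ES/PA6), 3 arrays a group. Neither group of PA6 cultures contained ES cells or serum. The medium of both held N2 and B27 supplements and insulin, and the study included them to separate signals of the stroma from those of the ES cells. A replicate is 1 well of 1 cell line, so the spread below is between wells of that line. Genes were described if a probe reached a detection p under 0.05 on 3 or more of these arrays, which gave 12805 genes of 30854 target names on the array.

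FGF2 is a secreted, heparin-binding growth factor. Together with heparan sulfate it joins FGF receptors into pairs, and the active receptors switch on the RAS-ERK kinase cascade, which induces ETS-family transcription factors and, with them, phosphatases and Sprouty proteins that dampen the same cascade. In stromal and preadipocyte cultures FGF2 is known as a mitogen and as a factor that alters fat cell and bone cell differentiation. ERK signalling also meets cytokine signalling, in which STAT factors induce acute phase genes and SOCS proteins feed back on the receptors.

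The 6 arrays were alike in quality. Between 17125 and 18109 probes were detected on the -GFs arrays and between 17442 and 17928 on the FGF2 arrays, with a median raw signal of 115 to 149. Correlations across genes were 0.989 to 0.991 within -GFs, 0.986 to 0.988 within FGF2 and 0.954 to 0.965 between them, and the first principal component of the 6 arrays (68.8% of the variance) separated the treatments. All 10 stromal markers, such as COL1A1, PDGFRA and VIM, were detected on all 6 arrays, and their summed level was 17.36 to 17.46 in -GFs and 17.08 to 17.33 in FGF2 (log2). Of 7 ES cell markers on the array 1 to 2 were detected, with POU5F1 detected on all 6 arrays (6.86 and 6.95), NANOG and SOX2 on none, and summed levels of 8.38 to 8.65 and 8.41 to 8.62. Of 7 blood cell markers 2 to 3 were detected, CD14 and CSF1R on all 6 arrays and PTPRC and EMR1 on none. Their summed level was 11.35 to 11.63 in -GFs and 11.90 to 11.94 in FGF2, most of it from CD14. Of 7 endothelial markers 1 to 2 were detected, at 9.01 to 9.38 and 8.58 to 8.65, and PECAM1 and VWF were undetected on all 6 arrays. Neural markers (0 to 1 of 6 detected) summed to 7.89 to 8.20 and 7.84 to 8.16, and epithelial ones (1 of 5) to 8.11 to 8.27 and 7.71 to 8.03.

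FGF2 changed many stromal transcripts in both directions. A gene was called when it changed by more than 1 on the log2 scale, up or down, with an adjusted p under 0.1 (limma, adjusted over all 12805 genes). By this rule 431 genes were higher and 405 lower with FGF2, 836 in all, or 6.53% of those tested (3.37% higher and 3.16% lower). The counts of every gene list below are to be read against these shares. Of the called genes, 116 rose and 76 fell by more than 2 on the log2 scale, and 34 rose and 17 fell by more than 3. The median change of all genes was -0.01. In 825 of the 836 called genes the 3 FGF2 arrays lay wholly above or below the 3 -GFs arrays, a separation seen in 39.5% of all genes tested. Of the called rises 95 were undetected on every -GFs array, and of the called falls 61 on every FGF2 array. For such a gene only a bound is known, written below as "at least". The mean of the brighter group was set against a floor, which on each dim array is the gene's own value or the lowest value of any detected probe, whichever is greater. Levels close to the top of the scale, such as those of INMT and OGN without FGF2 or LCN2 with it, may be compressed by saturation, which the files do not mark. In these bulk cultures fewer cells of a kind and less RNA per cell cannot be told apart.

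**Figure D1:**
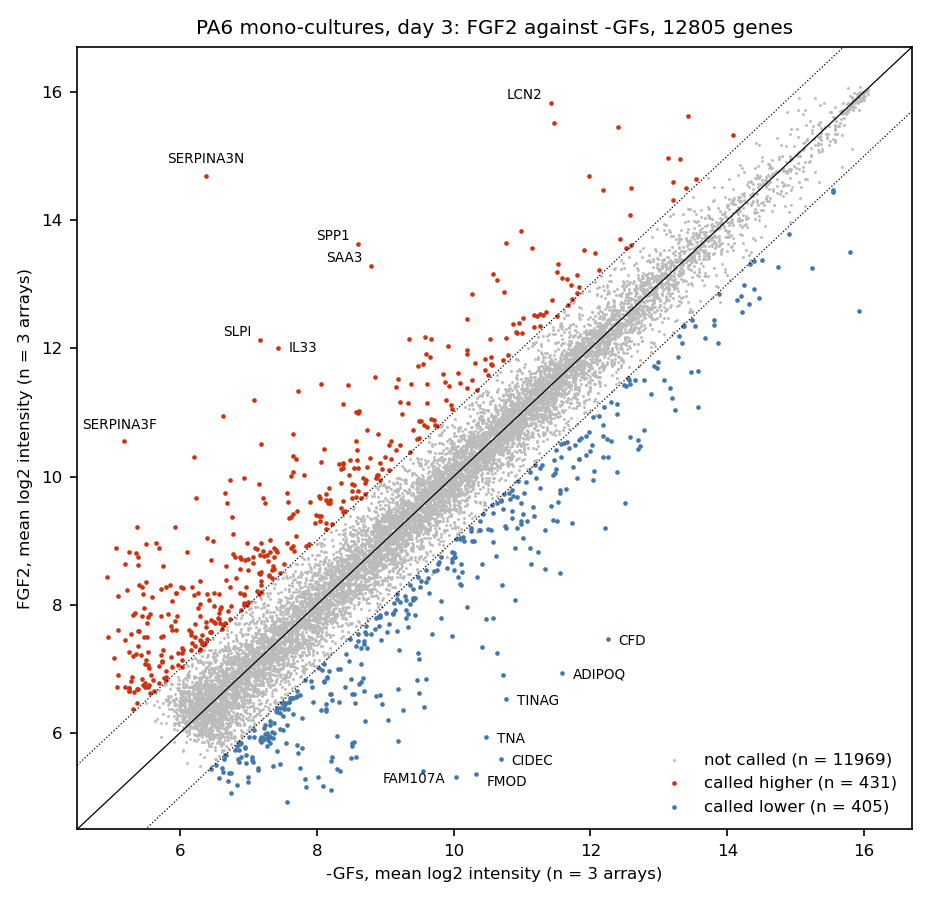
Mean log2 intensity of each of the 12805 genes in -GFs (horizontal) and FGF2 (vertical) PA6 mono-cultures, 3 arrays each, with the solid line at equality and dotted lines at a log2 difference of 1. The 431 called rises (red) and 405 called falls (blue) lie on both sides over the whole range of intensity, and the 7 genes with the largest change each way are named.

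The largest rise was in SERPINA3N, a secreted inhibitor of serine proteases of the antichymotrypsin family. It read 6.83, 5.60 and 6.71 on the -GFs arrays (replicates 1 to 3, log2 intensity) and 14.74, 14.80 and 14.54 on the FGF2 arrays. It was undetected on 1 of the -GFs arrays and far above all of them on every FGF2 array. SPP1, the secreted matrix phosphoprotein osteopontin, read 9.47, 7.57 and 8.80 against 13.66, 13.92 and 13.29. IL33, an alarmin cytokine of the IL-1 family, read 7.36, 7.07 and 7.86 against 12.08, 12.20 and 11.72. For both genes the lowest FGF2 array lay far above the highest -GFs array. RGS16, which shortens G protein signals, read 6.11, 6.56 and 7.21 in -GFs and 11.03, 10.82 and 11.01 in FGF2 (change 4.33 ± 0.279 SE, adjusted p 2.94e-08). IL13RA1, a receptor chain for IL-13, rose by 4.11 ± 0.382 (adjusted p 1.55e-06). HSD11B1 encodes the enzyme that regenerates active glucocorticoid inside cells. It read 11.89, 11.01 and 11.52 against 15.43, 15.65 and 15.48 (change 4.05 ± 0.328, adjusted p 4.06e-07), and its other probes changed by 4.07 and 4.15. The remaining large rises were in PRL2C3 (a prolactin-family hormone, at least 7.59-fold), EXPI (now named Wfdc18, at least 6.04-fold), ABCC3 (an organic anion exporter, 3.61), DIRAS2 (a RAS-related GTPase, at least 5.73-fold) and LOC100046802, which has no current symbol (4.10).

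The largest falls were in genes of fat cells and of the matrix, described with their groups below, and in several others. FAM107A, an actin-associated protein, read 9.83, 10.19 and 10.07 on the -GFs arrays and 5.86, 5.17 and 4.90 on the FGF2 arrays, where it was undetected. TINAG, a basement membrane glycoprotein, read 10.71, 10.78 and 10.81 against 6.58, 6.13 and 6.88 (change -4.24 ± 0.185, adjusted p 8.95e-10). Its second probe changed by -4.64. The C-type lectin tetranectin, a plasminogen-binding protein, is on the array under both an old and a current name, TNA (-4.54) and CLEC3B (-3.81), so that the 15 largest falls hold 14 distinct genes. INMT, an indole N-methyltransferase, read 15.99, 15.86 and 15.92 in -GFs and 13.37, 11.70 and 12.67 in FGF2 (change -3.35 ± 0.44, adjusted p 4.72e-05). Its -GFs levels were near the top of the scale, and its second probe changed by -4.42. HEY2, a transcriptional repressor downstream of Notch, was at least 3.86-fold lower (adjusted p 8.83e-09) and was undetected on all FGF2 arrays. WFDC3, a whey acidic protein domain protein, changed by -3.40 and BC064033, with no current symbol, was at least 9.84-fold lower.

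**Figure D2:**
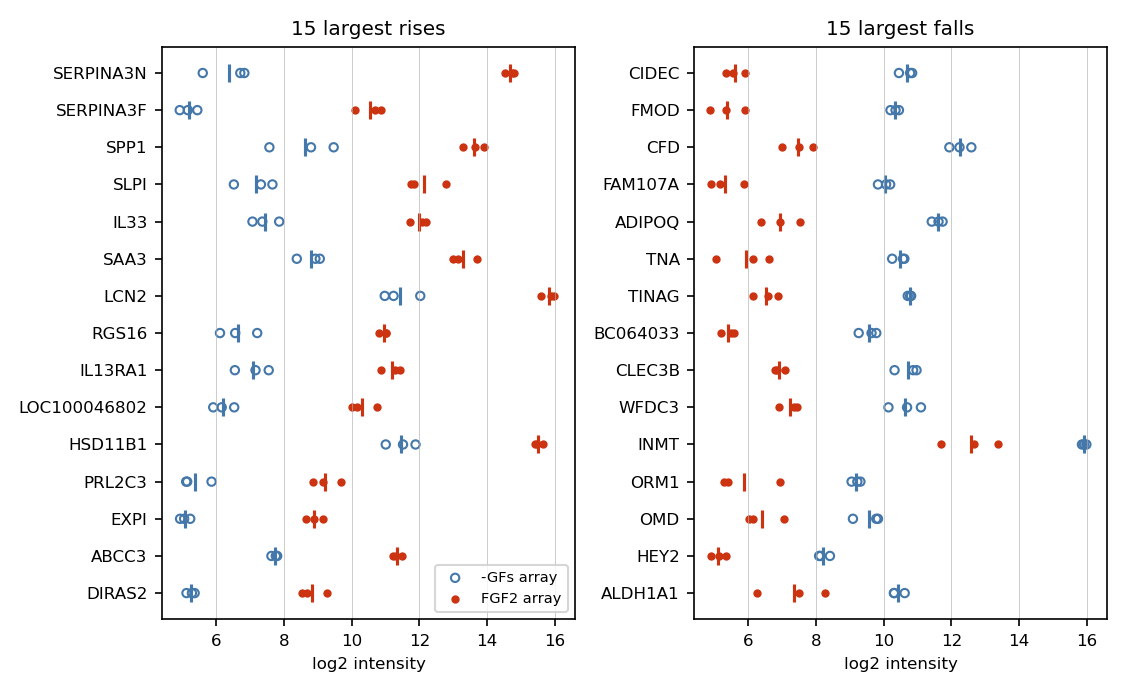
Log2 intensity on each array for the 15 genes with the largest called rises (left) and falls (right), with -GFs arrays as open circles, FGF2 arrays as filled circles and a bar at each mean. By the way these 30 were chosen, the 3 FGF2 arrays of each lie beyond its 3 -GFs arrays.

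Several target genes of ERK were raised in the stroma after 3 days of FGF2. Of the 22 listed, 15 were tested, of which 7 were higher and 1 lower, with a median change of 1.0. DUSP6, a phosphatase that inactivates ERK, read 8.67, 8.27 and 8.87 in -GFs and 10.72, 11.40 and 10.86 in FGF2 (change 2.39 ± 0.19, adjusted p 3.46e-07), and its second probe changed by 2.17. PHLDA1, an early growth factor response gene, read 10.32, 9.90 and 10.60 against 12.79, 12.92 and 12.79 (change 2.56 ± 0.262, adjusted p 3.94e-06). Groups were apart for both genes by more than the range within either. Among the ETS factors through which FGF signals are read out, ETV5 read 6.08, 6.03 and 5.94 in -GFs, all undetected, and 8.01, 8.80 and 7.99 in FGF2, at least 3.92-fold higher. ETV1 read 7.17, 6.36 and 7.10 against 8.75, 9.20 and 8.28 (change 1.86 ± 0.289, adjusted p 0.00023). EGR2 (1.82), DUSP4 (1.41) and IER3 (1.22) rose too, although the other probes of DUSP4 changed by 0.77 and 0.70. EGR1, an immediate early zinc finger factor, went the other way, from 11.58, 10.69 and 11.71 to 9.43, 8.46 and 9.61 (change -2.16 ± 0.347, adjusted p 0.000316). The cyclin gene CCND1 changed by 1.0 ± 0.277 (adjusted p 0.0175), which did not exceed the fold threshold, and passed without -GFs replicate 3 (1.18) or FGF2 replicate 1 (1.23) or 3 (1.08). The feedback inhibitor SPRY4 was undetected in -GFs and detected on all FGF2 arrays, with a bound of at least 1.39-fold. It was not called (0.89 ± 0.449, adjusted p 0.19). FOS (0.14), MYC (-0.11) and DUSP1 (-0.49) were not called.

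Of the FGF system itself, a receptor and a ligand fell and a coreceptor rose. Of 21 listed ligands, receptors and coreceptors 13 were tested, with 1 higher, 2 lower and a median of 0.19. The share called was 23.1%, against 6.53% of all genes. FGFR2, a receptor tyrosine kinase for FGFs, read 11.93, 11.96 and 11.69 in -GFs and 10.56, 10.67 and 10.56 in FGF2 (change -1.26 ± 0.227, adjusted p 0.000828). FGFR1 read 9.76, 9.61 and 9.74 against 8.69, 8.72 and 8.93, a change of -0.92 ± 0.242 (adjusted p 0.0125) that missed the fold threshold, while its second probe changed by -1.46. FGF2 arrays lay below all -GFs arrays for both receptors. The ligand FGF18 fell from 8.56, 8.23 and 8.75 to 5.63, 5.45 and 6.46 (change -2.67 ± 0.289, adjusted p 7.67e-06) and was detected on 1 FGF2 array. FGF10 changed by 0.89 ± 0.303 (adjusted p 0.0485) and FGF7 by 0.69, neither called. The heparan sulfate coreceptor SDC4 rose from 11.29, 11.23 and 11.26 to 12.42, 12.65 and 12.52 (change 1.27 ± 0.111, adjusted p 9.69e-07).

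**Figure D3:**
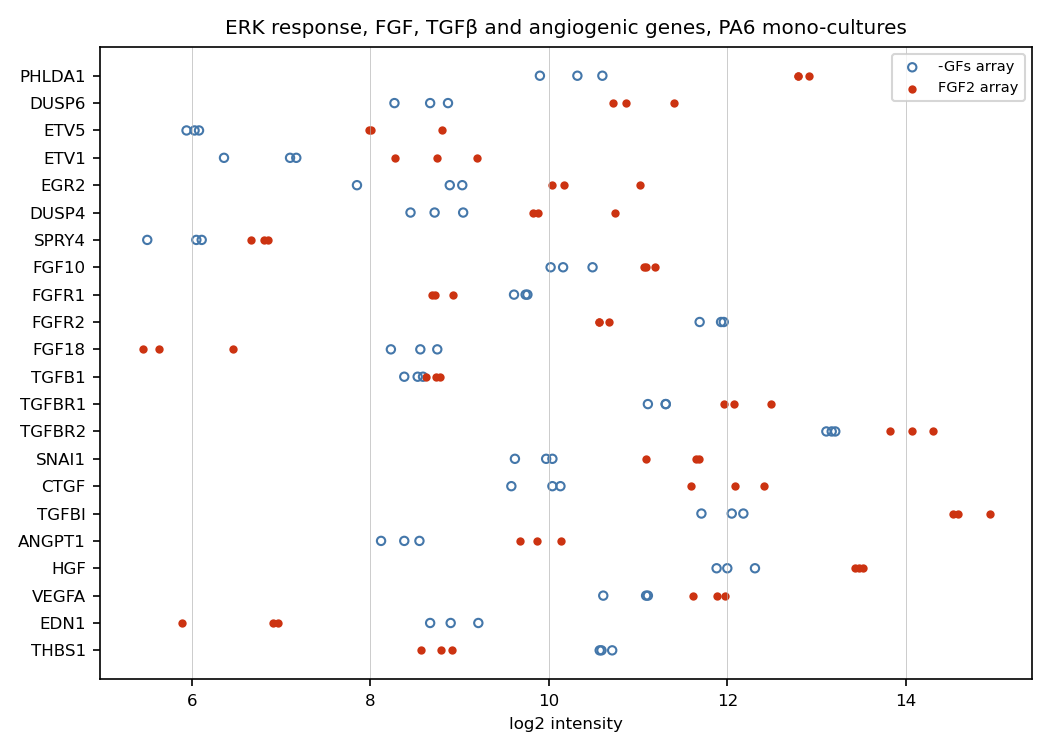
Log2 intensity on each -GFs (open) and FGF2 (filled) array for ERK response genes, FGF receptors and ligands, TGFβ pathway genes and angiogenic factors. Both ETS factors and DUSP6 lie higher with FGF2 and both FGF receptors lower, while the TGFB1 arrays differ by a mean of 0.22.

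Many genes rose in the list of acute phase genes and secreted protease inhibitors, the group that holds SERPINA3N. The list also holds cytokine and cytokine signalling genes, such as IL6, IL33 and SOCS3. Of 29 listed, 23 were tested, 16 were higher and 2 lower, and the median change was 1.79. The promoters of 3 risen members are shown because they hold the letters TTCNNNGAA, the palindromic core that STAT factors are known to bind, here in capitals. Each is the 250 bases before the transcript start in the RefSeq annotation of GRCm38.p6, 5′ to 3′ on the gene's strand: Serpina3f at chr12:104214294-104214543 (plus strand), Serpina3g at chr12:104235897-104236146 (plus strand) and Socs3 at chr11:117969367-117969616 (minus strand).
Serpina3f: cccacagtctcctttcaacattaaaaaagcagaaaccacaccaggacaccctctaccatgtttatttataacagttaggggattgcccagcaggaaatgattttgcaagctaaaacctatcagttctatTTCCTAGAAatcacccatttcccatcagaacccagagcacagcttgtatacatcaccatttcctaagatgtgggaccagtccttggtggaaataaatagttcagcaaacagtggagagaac
Serpina3g: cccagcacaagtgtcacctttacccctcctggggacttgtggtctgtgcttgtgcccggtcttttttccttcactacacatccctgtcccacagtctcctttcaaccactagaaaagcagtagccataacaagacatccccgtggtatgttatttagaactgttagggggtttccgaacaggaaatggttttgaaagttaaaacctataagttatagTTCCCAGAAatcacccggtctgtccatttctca
Socs3: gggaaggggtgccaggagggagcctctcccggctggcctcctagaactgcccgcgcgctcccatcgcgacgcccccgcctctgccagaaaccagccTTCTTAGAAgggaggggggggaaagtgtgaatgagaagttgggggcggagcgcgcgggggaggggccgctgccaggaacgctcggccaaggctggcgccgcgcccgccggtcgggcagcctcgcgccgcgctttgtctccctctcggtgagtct
The motif starts at positions -121, -33 and -154, in that order, counted from the transcript start. Windows from 250 bases before to 50 after the start were held for 14 of the 16 called rises, and 3 of these 14 (21.4%) had the motif, against 8.15% of the 7930 tested genes with a window. Both Serpina3 genes are close copies, so their matches are not separate cases. The AP-1 letters TGANTCA, on either strand, were in 4 of the 14 (28.6%) against 6.2% of tested genes. These letter searches were chosen after the values were seen, and a match is not a binding site.

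Of the Serpina3 genes on the array, SERPINA3F read 5.44, 5.16 and 4.92 in -GFs, undetected, and 10.87, 10.69 and 10.10 in FGF2. SERPINA3G, detected in both groups, read 11.79, 11.58 and 11.23 in -GFs and 13.48, 13.30 and 13.18 with FGF2 (change 1.79 ± 0.322, adjusted p 0.000834). SERPINA3M, undetected in -GFs, was at least 2.98-fold higher. SERPINA3H rose by 1.24 and lost the call without FGF2 replicate 1 (0.99). Probes of these near-identical paralogs may share signal. SOCS3, which switches off STAT3 signalling at cytokine receptors, read 11.17, 10.80 and 10.97 against 13.86, 13.74 and 13.89 (change 2.85 ± 0.144, adjusted p 3.48e-09). STAT3 itself changed by 0.86 ± 0.209 (adjusted p 0.00796), under the fold threshold. IL6, the cytokine that classically induces acute phase genes, read 5.39, 5.15 and 5.83 in -GFs, undetected, and 7.94, 8.28 and 8.28 in FGF2, at least 3.65-fold higher.

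SAA3, an extrahepatic serum amyloid A, read 9.06, 8.93 and 8.38 in -GFs and 13.70, 13.15 and 13.01 in FGF2 (change 4.49 ± 0.597, adjusted p 5.11e-05). LCN2, the iron-siderophore carrier lipocalin 2, read 12.03, 10.98 and 11.24 against 15.90, 15.97 and 15.61 (change 4.41 ± 0.547, adjusted p 2.66e-05). Each FGF2 value of both genes exceeded every -GFs value by over 3 on the log2 scale. SLPI, which inhibits neutrophil elastase, read 7.32, 7.66 and 6.52 against 11.75, 12.79 and 11.84. The ferroxidase ceruloplasmin, CP, rose by 2.30, with its other probes at 2.10, 1.89, 0.19 and -0.05. The IL-1 receptor antagonist IL1RN (2.42), the IL-33 receptor IL1RL1 (1.71), the pentraxin PTX3 (1.65) and the metallothionein MT2 (1.45) also rose. The orosomucoid genes that were tested, acute phase proteins of the lipocalin fold, fell: ORM1 from 9.05, 9.22 and 9.31 to 6.92, 5.39 and 5.29 (change -3.33 ± 0.627, adjusted p 0.00121), and ORM2, undetected with FGF2, was at least 4.71-fold lower. Complement C3 (-0.17), haptoglobin HP (0.82) and MT1 (-0.01), near the top of the scale in both groups, were not called, nor was LBP (0.01). The summed level of the blood cell markers, given above, was higher with FGF2 too. Most of it was CD14, at a mean of 11.29 in -GFs and 11.78 in FGF2, and CSF1R was detected on all 6 arrays at 6.86 and 6.88. LYZ2 read 6.89 in -GFs and 5.84 in FGF2, and PTPRC and EMR1 were undetected on all 6. The part of these markers in the rises of cytokine and acute phase genes was not tested.

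Among chemokines and colony stimulating factors, 13 of 23 were tested, 6 were higher and 1 lower, with a median of 0.70. CSF3, the granulocyte colony stimulating factor, read 5.25, 5.16 and 5.17 in -GFs, undetected, and 8.59, 9.49 and 7.84 in FGF2, at least 5.06-fold higher. CCL9 read 12.70, 12.34 and 12.17 against 15.82, 15.12 and 15.43 (change 3.05 ± 0.397, adjusted p 4.28e-05). CCL2, which attracts monocytes, read 10.59, 10.29 and 10.84 against 13.17, 13.35 and 12.95 (change 2.58 ± 0.477, adjusted p 0.00103). No FGF2 array of these 3 genes overlapped a -GFs array. CXCL14 was undetected in -GFs and at least 3.82-fold higher. CCL5 rose by 1.13 (adjusted p 0.094) and CCL11 by 1.01 (adjusted p 0.092), and the CCL11 arrays overlapped. CCL5 was not called without -GFs replicate 1 (1.13, adjusted p 0.175) or 2 (0.81) or without FGF2 replicate 1 (0.97), 2 (1.24, adjusted p 0.138) or 3 (1.17, adjusted p 0.142), nor was CCL11 without -GFs replicate 1 (0.70) or 2 (0.92) or FGF2 replicate 2 (0.82) or 3 (0.99). CXCL15 fell from 7.63, 8.86 and 8.55 to 5.30, 5.50 and 5.44, undetected with FGF2 and at least 4.24-fold lower. CXCL12, the chemokine by which stroma retains blood stem cells, changed by 0.63 and was not called, and its other probes changed by 0.01 and 0.26. Of 25 tested genes induced by interferon 0 were higher and 3 lower, with a median of -0.08. That is 12% called, against 6.53% of all genes (3.37% higher and 3.16% lower). IFIT2 (-2.16), IFI205 (-1.83) and IFIT3 (-1.13, adjusted p 0.0912) were those that fell. IFIT3 was not called without -GFs replicate 1 (-1.07), 2 (-1.23, adjusted p 0.13) or 3 (-1.08, adjusted p 0.179) or without FGF2 replicate 2 (-0.94) or 3 (-1.08, adjusted p 0.176).

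Cholesterol synthesis had the largest share of called members of the 26 lists. Of 25 listed genes 22 were tested, 20 were higher (90.9%) and 0 lower, and the median change was 2.05, against 3.37% of all genes higher and an all-gene median of -0.01. The 20 included enzymes from the first to the last steps of the pathway from acetyl-CoA to cholesterol. At its start, ACAT2, which joins acetyl units, read 10.96, 10.95 and 10.84 in -GFs and 12.36, 12.25 and 12.10 in FGF2. In the mevalonate steps MVK (at least 2.35-fold), PMVK (1.40) and MVD (3.02) rose. MVD, the mevalonate diphosphate decarboxylase, read 7.93, 7.70 and 7.30 against 10.68, 10.70 and 10.62 (change 3.02 ± 0.194, adjusted p 2.92e-08), the largest change of the group.

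In the isoprenoid and squalene steps, FDPS, which makes farnesyl diphosphate, read 10.74, 10.89 and 10.69 in -GFs and 13.65, 13.61 and 13.65 in FGF2 (change 2.87 ± 0.174, adjusted p 1.67e-08), with 2.50 at its second probe. SQLE, the squalene epoxidase, read 10.94, 10.90 and 10.35 against 13.09, 12.77 and 12.77 (change 2.15 ± 0.2, adjusted p 1.55e-06). IDI1 (1.81) and the lanosterol synthase LSS (2.42) rose as well. Of the enzymes that turn lanosterol into cholesterol, CYP51 read 9.66, 9.60 and 9.47 against 12.30, 12.10 and 12.13 (change 2.60 ± 0.154, adjusted p 1.55e-08). The spread within either group of arrays was small beside these changes. HSD17B7 (2.71), SC4MOL (2.42), NSDHL (1.95), TM7SF2 (1.92), DHCR7 (1.69) and SC5D (1.16) rose too, and SC5D was called in all settings except the 2 without background correction (0.82 at the lowest). EBP, the sterol isomerase, changed by 0.31.

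The factor that controls the pathway rose as well. SREBF2, that transcription factor, read 8.62, 8.22 and 8.30 against 10.07, 9.95 and 10.37 (change 1.75 ± 0.172, adjusted p 2.68e-06). STARD4, a cholesterol carrier, rose by 2.42. INSIG1, which holds SREBF2 protein in the endoplasmic reticulum and is itself one of its targets, changed by 0.40 and was not called. Its other probes changed by 0.98 and 0.99, and normalizing the 6 arrays alone gave 1.01, which was called. Over the settings tried, 14 to 21 members were called higher and 0 lower. The sterol regulatory element letters TCACNCCAC, searched on either strand, were in 0 of the 14 windows held for these 20 genes. They were in 1.24% of tested genes with a window, a share so low that 14 windows cannot tell the groups apart. A missing match to these letters is not a missing site. The listed fatty acid genes were less uniform, with 3 of 9 tested higher, 0 lower and a median of 0.76. SCD2 (1.83) and SCD1 (1.38), the stearoyl-CoA desaturases, and the elongase ELOVL6 (1.76) rose, while ACLY (0.45) and FADS2 (0.76) were not called. ACSS2 changed by 0.98 ± 0.201 (adjusted p 0.00248), just under the fold threshold.

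Several genes of the fat cell fell, while the factors that specify it were not called. Of 33 listed, 22 were tested, 1 was higher and 7 lower, with a median of -0.63. ADIPOQ, the adipocyte hormone adiponectin, read 11.42, 11.74 and 11.62 in -GFs and 7.52, 6.94 and 6.36 in FGF2. CFD, the secreted protease adipsin, read 11.94, 12.59 and 12.24 against 7.51, 7.91 and 6.98. CIDEC, a lipid droplet protein, read 10.45, 10.78 and 10.84 and went to 5.54, 5.90 and 5.35, undetected on all FGF2 arrays. No FGF2 array of these 3 genes came near the -GFs range, and ADIPOQ and CFD were still detected on all of them. S3-12 (now Plin4), a droplet coat protein, read 12.56, 12.16 and 11.90 against 9.14, 9.23 and 9.23 (change -3.01 ± 0.478, adjusted p 0.000284). LPL, the lipase that releases fatty acids from lipoproteins, read 9.73, 9.43 and 9.61 against 7.59, 6.08 and 6.86 (change -2.75 ± 0.301, adjusted p 8.48e-06). The carbonic anhydrase CAR3 was undetected with FGF2 and at least 2.48-fold lower. GPD1, which makes the glycerol backbone, changed by -1.03 (adjusted p 0.0147), undetected with FGF2, and lost the call without -GFs replicate 3 (-0.87) or FGF2 replicate 1 (-0.91) or 2 (-1.0).

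Against these falls, ANGPTL4, a secreted inhibitor of LPL, rose from 8.79, 9.26 and 9.52 to 11.93, 11.08 and 11.56 (change 2.33 ± 0.218, adjusted p 1.63e-06). The master regulators PPARG (-0.10) and CEBPA (-0.23) were not called, nor were CEBPB (0.70) and CEBPD (0.34). DGAT2, which makes triglyceride, read 9.38, 10.12 and 9.55 against 8.53, 8.67 and 8.23, a change of -1.21 that was not called (adjusted p 0.163). It was called when only the 6 arrays entered the fit (adjusted p 0.0086), where the spread of the co-cultures is not pooled. A further 11 listed genes, FABP4, CD36 and PLIN1 among them, were detected on too few of the 6 arrays to be tested.

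**Figure D4:**
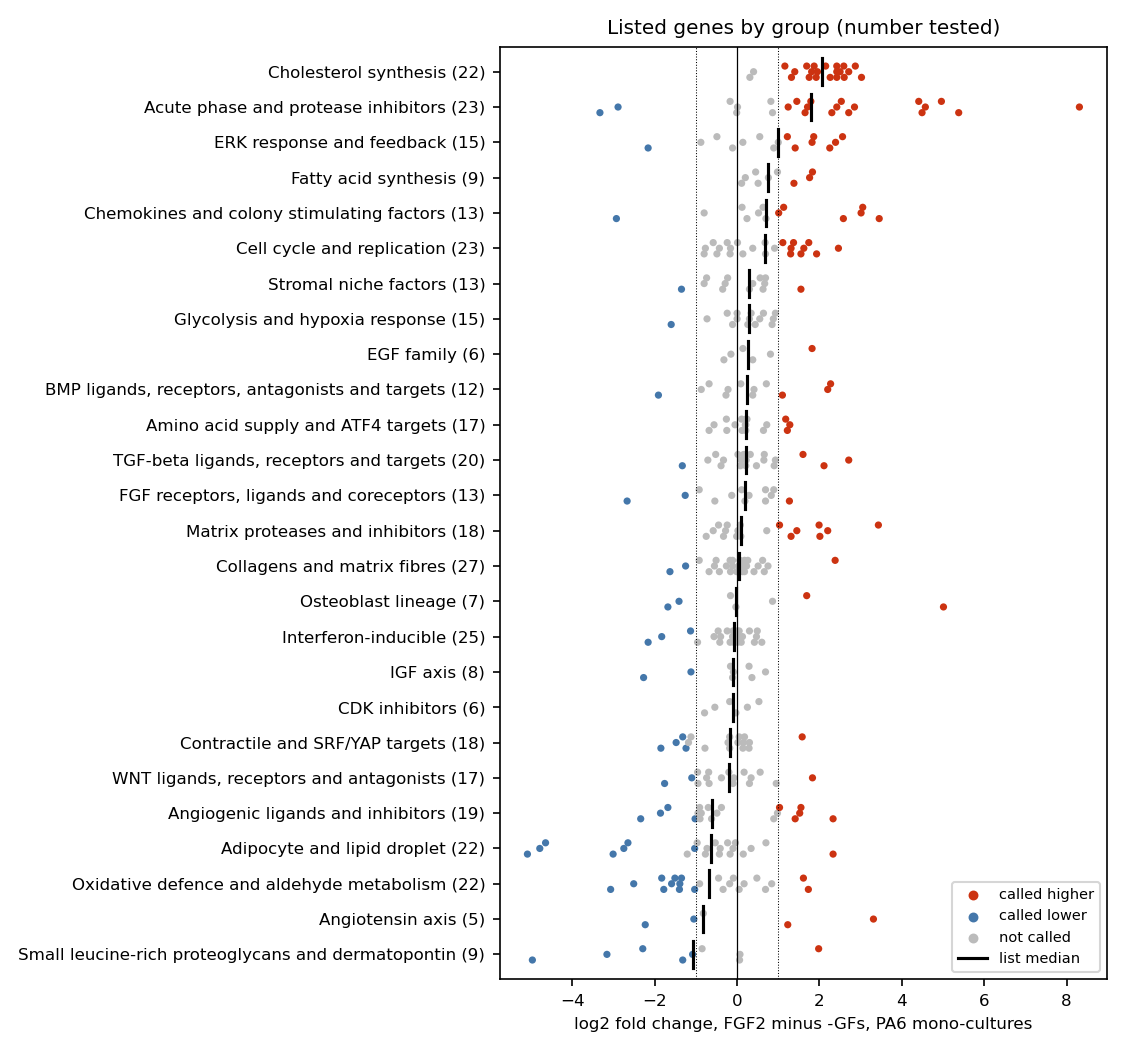
Log2 fold change (FGF2 minus -GFs) of every tested member of 26 gene lists, ordered by list median (black bar), with called rises in red, called falls in blue and dotted lines at -1 and 1. Cholesterol synthesis stands at 2.05 with 20 of 22 members red, and the small leucine-rich proteoglycans at -1.08.

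In the extracellular matrix some small proteoglycans fell, and the main fibrous collagens were not called. Of 13 listed small leucine-rich proteoglycans and dermatopontin, 9 were tested, 5 were lower and 1 higher, with a median of -1.08. FMOD, fibromodulin, which binds collagen fibrils, read 10.35, 10.20 and 10.45 in -GFs and 5.33, 4.87 and 5.90 in FGF2, where it was undetected. OMD, osteomodulin, read 9.83, 9.78 and 9.09 against 7.06, 6.01 and 6.14 (change -3.16 ± 0.292, adjusted p 1.49e-06). OGN, osteoglycin, read 15.80, 15.89 and 15.68 against 14.05, 12.91 and 13.53 (change -2.29 ± 0.327, adjusted p 0.000103). The other probes of OGN, whose -GFs levels were near the top of the scale, changed by -2.14 and -3.01. These 3 genes separated on every array. DPT changed by -1.32 and PRELP by -1.08, and both lost the call without FGF2 replicate 2 (-0.90 and -0.95). PODN rose, undetected in -GFs and at least 2.08-fold higher. Decorin (DCN, 0.06), biglycan (BGN, 0.07) and lumican (LUM, -0.85) were not called. DCN and BGN lay near the top of the scale in both groups, where a change could go unseen, and the other probes of DCN changed by -1.14, -0.29 and -0.95.

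Of 33 listed collagens and fibre proteins, 27 were tested, 1 was higher and 2 lower, with a median of 0.04. The share called was 11.1%, against 6.53% of all genes. COL1A1 (-0.51), COL1A2 (-0.55), COL3A1 (-0.17) and FN1 (0.07) were not called. Elastin, ELN, fell from 10.00, 10.04 and 10.12 to 8.61, 8.24 and 8.43 (change -1.63 ± 0.449, adjusted p 0.0169). Periostin, POSTN, changed by -1.25, and by -0.91 without FGF2 replicate 2, where it was not called. Tenascin C, TNC, a matrix glycoprotein of remodelling tissue, rose by 2.38, with 2.25 and 0.51 at its other probes. Matrix proteases and their inhibitors gave 7 higher and 0 lower of 18 tested (25 listed), with a median of 0.09. TIMP1, an inhibitor of metalloproteinases, read 13.49, 13.39 and 13.41 against 15.52, 15.76 and 15.60 (change 2.20 ± 0.187, adjusted p 6.91e-07). Stromelysin MMP3 was undetected in -GFs and at least 6.23-fold higher, at 9.03, 8.11 and 9.68 with FGF2. Gelatinase MMP9 rose by 2.01 ± 0.282 (adjusted p 9.01e-05). ADAMTS1 (1.99, with 1.54 and 0.61 at its other probes), the plasminogen activator PLAT (1.45), the urokinase receptor PLAUR (1.31) and ADAMTS12 (1.03) rose too. ADAMTS12 lost the call without -GFs replicate 3 (1.0) or FGF2 replicate 1 (0.96). MMP2 (0.02), MMP14 (-0.28) and TIMP2 (-0.45) were not called, and MMP2 lay near the top of the scale in both groups.

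The study followed TGFβ signalling in these cultures. Of 23 listed 20 were tested, 3 were higher and 1 lower (20% called, against 6.53% of all genes), with a median of 0.21. TGFBI, a secreted matrix protein induced by TGFβ, read 12.18, 11.71 and 12.05 in -GFs and 14.59, 14.94 and 14.53 in FGF2 (change 2.71 ± 0.365, adjusted p 6.02e-05), with 3.10 at its second probe. CTGF (now Ccn2), a matricellular growth factor, read 9.58, 10.13 and 10.04 against 11.59, 12.41 and 12.09, and its second probe changed by 2.09. SNAI1, a repressor of epithelial genes, read 9.62, 9.97 and 10.04 against 11.09, 11.68 and 11.65, with 2.02 at its second probe. No array of these 3 genes overlapped the other group. The ligand TGFB1 itself, with 1 probe on the array, changed by 0.22, and TGFB2 by 0.65, neither called. By real-time PCR, a different measure, the study reported TGFB1, TGFBR1 and TGFBR2 raised by FGF2 in pure PA6 cultures. It also counted TGFB1 among the genes changed on its arrays of PA6 cells after 3 h of FGF2. Its pathway analysis named TGFB1 as an upstream regulator there, and similar results were reported after 3 days. The receptors TGFBR1 (0.93 ± 0.147, adjusted p 0.000265) and TGFBR2 (0.90 ± 0.225, adjusted p 0.00943) had FGF2 arrays above all -GFs arrays but changed by less than the fold threshold. Leaving out FGF2 replicate 3 took TGFBR1 past it (1.04), and leaving out FGF2 replicate 2 did so for TGFBR2 (1.02). TGFB3 changed by -1.33 ± 0.527 (adjusted p 0.0912) and was not called once any 1 array was left out: the change was -1.38, -1.36 and -1.26 without -GFs replicate 1, 2 or 3 and -1.23, -1.26 and -1.51 without FGF2 replicate 1, 2 or 3.

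Contractile genes and targets of SRF and YAP leaned lower, with 1 higher and 4 lower of 18 tested (21 listed) and a median of -0.18. The share called was 27.8%, against 6.53% of all genes. AKAP12, a kinase scaffold, read 13.57, 13.40 and 13.44 against 11.56, 11.56 and 11.76 (change -1.85 ± 0.135, adjusted p 1.25e-07), with -2.01 at its second probe. FHL1, a LIM protein of muscle and stroma, read 14.72, 14.83 and 14.68 against 13.26, 13.35 and 13.19 (change -1.48 ± 0.203, adjusted p 7.48e-05). AMOTL2 (-1.32) and LMOD1 (-1.24) fell. CYR61, a sister of CTGF, rose by 1.58 (adjusted p 0.0542) and was not called without -GFs replicate 1 (1.21) or 2 (1.48) or FGF2 replicate 3 (1.45). ACTA2, smooth muscle actin, read 13.85, 13.97 and 13.87 against 12.22, 13.03 and 12.90, and MYL9, a myosin light chain, 12.02, 11.94 and 12.27 against 10.61, 10.95 and 11.31. Their changes of -1.18 and -1.12 were not called (adjusted p 0.289 and 0.202). No FGF2 array of either reached the -GFs range, a separation seen in 39.5% of all genes tested. With only the 6 arrays in the fit both were called (adjusted p 0.00875 and 0.00736).

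Angiogenic ligands and inhibitors moved in both directions. Of 25 listed, 19 were tested, 5 were higher and 4 lower, with a median of -0.62. ANGPT1, the ligand that activates the endothelial receptor TIE2, read 8.12, 8.55 and 8.38 in -GFs and 10.14, 9.87 and 9.68 in FGF2 (change 1.55 ± 0.326, adjusted p 0.00293). HGF, the ligand of MET, lay between 11.88 and 12.31 in -GFs and between 13.43 and 13.52 in FGF2 (change 1.41 ± 0.312, adjusted p 0.00418). FGF2 arrays were higher without overlap for both. PDGFC was undetected in -GFs and at least 1.43-fold higher, and ANGPT2 changed by 1.03, and by 1.0, 0.86 and 0.99 without -GFs replicate 1 or 2 or FGF2 replicate 3, where it was not called. ANGPTL4, given with the fat cell genes, is the other member that rose. EDN1, the vasoconstrictor endothelin, read 8.67, 8.90 and 9.21 against 6.91, 5.89 and 6.97 (change -2.34 ± 0.447, adjusted p 0.00137). THBS1, an inhibitor of angiogenesis, read 10.71, 10.59 and 10.57 against 8.91, 8.57 and 8.79 (change -1.86 ± 0.223, adjusted p 1.9e-05). The vasodilator ADM fell by 1.68 on the log2 scale. FIGF (now Vegfd) changed by -1.02 and was not called without -GFs replicate 2 (-1.0) or 3 (-0.97) or FGF2 replicate 2 (-0.81). VEGFA read 11.09, 11.11 and 10.61 against 11.89, 11.97 and 11.62, a change of 0.89 ± 0.209 (adjusted p 0.00627) short of the fold threshold, with 1.02 at its second probe. Of the stromal niche factors, 13 of 20 were tested, with ANGPT1 higher, the Notch ligand JAG1 lower (-1.35 ± 0.279, adjusted p 0.00257) and a median of 0.30. The share of niche factors called was 15.4%, against 6.53% of all genes. TEK, the TIE2 gene itself, is an endothelial marker that PA6 cells carried in -GFs, at 8.31, 7.87 and 8.01, and it read 6.74, 6.04 and 6.27 with FGF2 (change -1.71 ± 0.21, adjusted p 2.51e-05).

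Several cell cycle genes rose. In the cell cycle list 23 of 30 were tested, 9 were higher and 0 lower, with a median of 0.68. TK1, thymidine kinase, read 5.56, 5.42 and 6.44 in -GFs and 7.80, 9.0 and 8.0 in FGF2 (change 2.46 ± 0.296, adjusted p 1.98e-05). BIRC5, survivin of the chromosomal passenger complex, read 6.32, 6.51 and 7.17 against 8.05, 9.34 and 8.40 (change 1.93 ± 0.291, adjusted p 0.000178). CDC20, which activates the anaphase complex, read 8.51, 8.50 and 8.55 against 9.54, 10.58 and 9.56 (change 1.37 ± 0.2, adjusted p 0.000128). FGF2 replicate 2 was the highest array for all 3 genes. CDCA3 (1.74) and PRC1 (1.31) rose too. CCNB1 (1.62, with 0.56 at its second probe) and AURKA (1.55), undetected in -GFs, were at least 1.78-fold and 2-fold higher. Neither was called without background correction (0.88 and 0.81 at the lowest). PLK1 (1.30) and AURKB (1.11) rose and lost the call without FGF2 replicate 2 (0.92 and 0.83). Both also lost it without background correction, and AURKB was undetected in -GFs, at least 1.79-fold higher. The helicase subunits MCM2 (-0.58), MCM3 (-0.77) and MCM6 (-0.80), PCNA (0.14) and RRM2 (-0.16) were not called. Of 6 tested CDK inhibitors limma called 0. An unadjusted p under 0.05 was found for 3 of them, CDKN1A (0.53) and CDKN1B (-0.79) included, and for 4031 of all 12805 genes.

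Many enzymes of aldehyde and glutathione metabolism fell. Of 26 listed 22 were tested, 10 were lower and 2 higher, with a median of -0.68. ALDH1A1, which makes retinoic acid from retinaldehyde, read 10.62, 10.30 and 10.31 in -GFs and 8.26, 6.24 and 7.51 in FGF2 (change -3.07 ± 0.491, adjusted p 0.0003). ALDH3A1 read 8.46, 8.95 and 8.69 against 6.24, 6.67 and 5.66 (change -2.51 ± 0.202, adjusted p 3.97e-07). Both were separated on all arrays. The glutathione transferases GSTT1 (-1.83), GSTA4 (-1.51) and GSTM1 (-1.39, with -0.08 at its second probe) and the aldehyde oxidase AOX3 (-1.59) fell. GSTA3 (-1.78), ALDH1A7 (-1.40), FMO1 (-1.35) and ADH7 (-1.03) were called lower, and each lost its call without some single arrays. GSTA3 was at -1.54 without -GFs replicate 2, -1.55 without FGF2 replicate 1 and -1.46 without FGF2 replicate 3, and FMO1 at -1.06 without FGF2 replicate 2. ALDH1A7 was at -1.57 and -1.03 without -GFs replicate 1 or 2 and -1.44 and -1.15 without FGF2 replicate 2 or 3, and ADH7 at -1.0 and -0.97 without -GFs replicate 1 or 2 and -0.97 and -0.98 without FGF2 replicate 1 or 3. ALDH1L1 (1.73), a folate enzyme, and CBR2 (1.61), a carbonyl reductase, rose. NQO1 (-0.45) and HMOX1 (0.69), targets of NRF2, were not called. Several of these genes have near copies that a probe may also bind.

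In the angiotensin system ACE, the enzyme that makes angiotensin II, read 5.81, 5.46 and 5.69 in -GFs, undetected, and 8.99, 9.0 and 8.90 in FGF2, at least 6.34-fold higher. AGT, which encodes the precursor angiotensinogen, read 10.45, 10.21 and 9.91 against 8.08, 8.13 and 7.67 (change -2.23 ± 0.475, adjusted p 0.00318). Neither gene had overlapping groups. MME (1.23) and ANPEP (-1.05), membrane peptidases, were the other calls among 5 tested of 9 listed. MME lost the call without FGF2 replicate 1 (0.99), and ANPEP without -GFs replicate 1 (-0.97) or 3 (-0.95) or FGF2 replicate 2 (-0.67). AGTR1A, the angiotensin receptor, changed by -0.82 and the median of the list was -0.82.

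The remaining lists, with 6 to 17 tested genes, held 1 to 4 calls each. Their shares called ran from 6.67% (glycolysis and hypoxia) to 57.1% (osteoblast), against 6.53% of all genes. In the BMP pathway 3 of 12 tested (20 listed) were higher and 1 lower, with a median of 0.23. ID3, a BMP target that blocks helix-loop-helix factors, read 7.59, 8.12 and 7.73 against 9.75, 9.98 and 10.33, and ID4, of the same family, 9.41, 9.10 and 9.11 against 7.43, 7.05 and 7.39 (change -1.91 ± 0.223, adjusted p 1.56e-05). ATOH8 was undetected in -GFs and at least 2.84-fold higher, and BMP1 rose by 1.10 (0.98 without FGF2 replicate 1). Members of the ID family moved in opposite directions. In the WNT list 1 of 17 tested (28 listed) was higher and 2 lower, with a median of -0.20: WISP2 (1.83) rose, and the receptors FZD5 (-1.76, with -0.31 at its second probe) and FZD2 (-1.10, and -0.87 without FGF2 replicate 2, where it was not called) fell. The EGF-family ligand BTC rose by 1.82 ± 0.288 (adjusted p 0.000283), 1 of 6 tested of 10 listed (median 0.26). IGFBP6, which sequesters IGF2, read 12.64, 12.68 and 12.88 against 10.30, 10.63 and 10.47 (change -2.27 ± 0.367, adjusted p 0.000334). IGF2 changed by -1.12, and by -1.02 without -GFs replicate 1 and -0.77 without FGF2 replicate 2, where it was not called, so that 2 of 8 tested of 11 listed in the IGF axis were lower (median -0.10).

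Besides SPP1, the osteoblast list (7 tested of 13, 2 higher and 2 lower, median -0.03) held a rise of TNFRSF11B (1.69), the decoy receptor osteoprotegerin. PHEX was undetected with FGF2 and at least 1.84-fold lower. BGLAP2 was called lower (-1.41, adjusted p 0.0573), though not without -GFs replicate 1 (-1.29) or 2 (-1.25) or FGF2 replicate 1 (-1.06). Of the amino acid and ATF4 targets, 3 of 17 tested (20 listed) were higher and 0 lower, with a median of 0.21. ASNS, asparagine synthetase, rose by 1.28 ± 0.199 (adjusted p 0.000232). Its other probes gave 1.68 and 1.36. TRIB3 (1.22) and CHAC1 (1.18) lost the call without FGF2 replicate 2 (0.92 and 0.85), and TRIB3 also without -GFs replicate 3 (0.91). Glycolysis and hypoxia genes gave 0 higher and 1 lower of 15 tested (21 listed), 6.67% called against 6.53% of all genes. Their median was 0.30, and the fall was NDRG1 at -1.60 ± 0.257 (adjusted p 0.000317). With no fold threshold 7 of the 15 were higher and 2 lower, against 1617 and 1673 of all 12805 genes. SLC2A1 (0.93), PKM2 (0.88) and LDHA (0.85) were among the 7.

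The FGF2 response was set directly against that of BMP4 in PA6 mono-cultures, to see which changes BMP4 did not share. FGF2 vs BMP4 called 891 of the 12805 genes (6.96%), 463 higher (3.62%) and 428 lower (3.34%) with FGF2. Of the 836 genes called against -GFs, 581 were called here with the same sign, 5 with the opposite sign and 250 were not called. Both tests use the same FGF2 arrays. In cholesterol synthesis 20 of 22 members were higher with FGF2 than with BMP4, a median difference of 1.67. Against -GFs the median change of the 22 with BMP4 was 0.35, where BMP4 called 1.62% of all genes (0.859% higher and 0.765% lower). In the acute phase list 16 of 23 were higher and 2 lower with FGF2 than with BMP4, with a median difference of 2.51. Fat cell genes diverged, with 1 of 22 higher and 13 lower with FGF2 than with BMP4 and a median difference of -1.22. ADIPOQ changed by -4.65 with FGF2 and 1.85 with BMP4 against the same -GFs arrays, the latter not called (adjusted p 0.166), and the direct difference was -6.50 ± 0.657. For LPL, called in both, the same values were -2.75 and 1.26, with a difference of -4.01, and for ANGPTL4 2.33, -1.25 and 3.58. Other genes were not called different between the factors: ID3 rose with both (2.20 and 3.07, difference -0.86 ± 0.216), as did TNFRSF11B (1.69 and 2.18, difference -0.50 ± 0.221). IFIT2, IFIT3 and IFI205 were called lower with BMP4 too (-1.27, -1.50 and -2.50) and not called different. Of the largest changes, FMOD (-1.65), TNA (-1.72), TINAG (-1.71), BC064033 (-2.55) and CLEC3B (-1.59) were also called lower with BMP4. RGS16 (1.51) was also called higher. Each of these changed more with FGF2, and the difference was called. For the cell cycle list, 4 of 23 were higher and 1 lower with FGF2 than with BMP4, with a median difference of 0.04.

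The same factor was also compared between PA6 cells alone and ES/PA6 co-cultures, as the difference of the FGF2 changes. That difference was called for 869 genes (6.79%), 436 higher (3.40%) and 433 lower (3.38%) in the mono-cultures. In the co-cultures FGF2 called 201 of the 12805 genes (1.57%), 0.789% higher and 0.781% lower. The 12805 genes were chosen by detection in PA6 mono-cultures. Genes undetected there, such as NANOG and SOX2, were not counted, so the 201 is not the whole response of the co-cultures. In cholesterol synthesis 20 of 22 members had a larger change in PA6 cells alone, with a median difference of 2.31. MVD changed by 3.02 in PA6 cells alone and -0.26 in co-culture (difference 3.28 ± 0.274). In the acute phase list 13 of 23 members had a called difference upwards and 2 downwards, with a median of 1.56, and 5 of the 23 were called higher and 1 lower in the co-cultures themselves. SAA3 changed by 4.49 and -1.36 (difference 5.85). SERPINA3N rose in both, by 8.31 and 4.11, as did IL33 (4.57 and 2.87), SLPI (4.96 and 2.10) and IL1RL1 (1.71 and 1.20). SOCS3 changed by 2.85 and 2.17, a difference of 0.68 ± 0.203 that was not called, and TIMP1 by 2.20 and 1.59 (difference 0.60 ± 0.265, not called). Of the 10 largest rises and 10 largest falls, which were chosen for their change in mono-cultures, LOC100046802 (difference 0.84) and ADIPOQ (-2.28) were not called different. The ERK targets DUSP6 (difference 2.38) and ETV5 (2.39) were. ETV5 was undetected in -GFs mono-cultures, so its difference rests on background values there. The cultures also differed in their cells: all 10 stromal markers read lower in -GFs co-cultures than in -GFs mono-cultures, COL1A1 at 11.79 against 13.49, and POU5F1, which marks pluripotent cells, read higher, at 13.19 against 6.86. The part of this mixture in the differences was not tested.

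**Figure D5:**
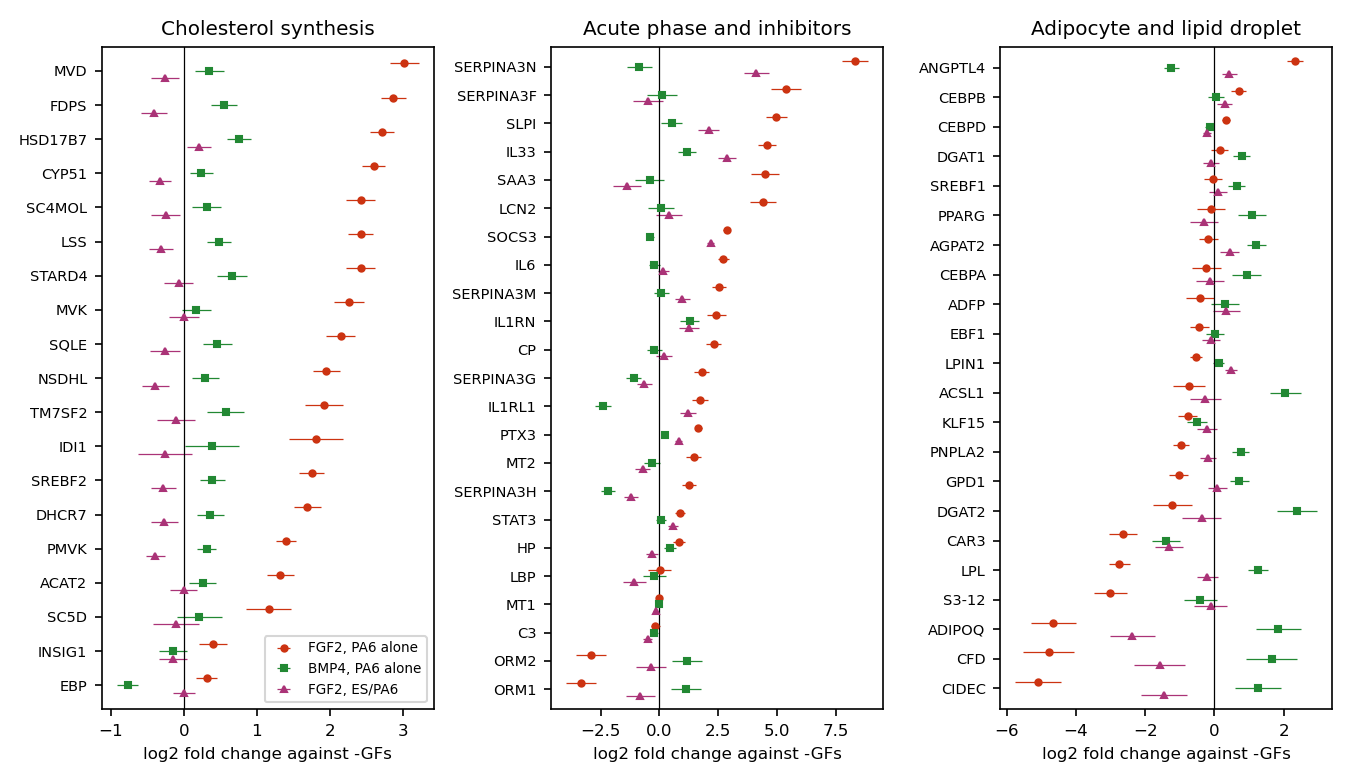
Log2 fold change against -GFs (± SE of the fit) of tested members of the cholesterol (19 of 22 shown), acute phase and fat cell lists, for FGF2 (circles) and BMP4 (squares) in PA6 mono-cultures and FGF2 in ES/PA6 co-cultures (triangles). For 20 of 22 cholesterol genes FGF2 was called higher than BMP4, and for 20 the change was called larger than in co-cultures, while LPL was called lower with FGF2 and higher with BMP4 against shared -GFs arrays.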

How the data were processed

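Total RNA of each well was made into biotin-labelled cRNA and hybridised to 1 array. Per the labels the authors read the arrays with GenomeStudio 2011.01. The deposited intensity values are non-normalized, 1 per probe on a linear scale, each with a deposited detection p-value against the negative control beads of its array, and 5 stray lines after the table were left out. Other columns not matched to a sample numbered 0. All 18 arrays were background corrected and quantile normalized together on the log2 scale (neqc of limma 3.58.1, R 4.3.3, offset 16, which understates folds of dim genes), where the study's methods name a cubic spline. Of 45281 probes 17928 passed the detection filter, and the probe with the largest mean over the 18 arrays stood for its gene (12805 genes, 3597 with several kept probes). Names are those of the array, and 10513 of them had a current symbol in the RefSeq annotation of GRCm38.p6.

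A limma fit of 6 group means on 18 arrays gave every test. Its p-values measure the spread between wells and are Benjamini-Hochberg adjusted over the 12805 genes. Other probes of a gene were tested in a fit over all kept probes. The fit was tested on simulated data with 200 changed genes. The number of arrays limits the precision.

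Named are the 15 largest rises and the 15 largest falls among called genes whose FGF2 and -GFs arrays do not overlap, the called members of 26 gene lists with the uncalled members that bear on them, and 6 marker lists. The PA6 cultures, the lists and the tests were chosen with earlier results of these data known. Some members below the threshold, and TEK, were named after their values were seen. Alternatives were other background corrections and normalizations, filters, probe choices, arrays in the fit, weights, thresholds, a replicate block and each array left out. Single values of 3 cholesterol genes are not reported here, although the counts include them.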

Additional observations from a re-analysis of the deposited data

Results flagged for a closer look

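The change with FGF2 differed between PA6 cells alone and ES/PA6 co-cultures for 869 genes by the interaction contrast of the limma fit. Among the 10 largest rises in PA6 cells alone, the difference (change in mono-cultures minus change in co-cultures, log2) was 4.20 for SERPINA3N, 5.85 for SERPINA3F, 3.06 for SPP1, 2.86 for SLPI, 1.70 for IL33, 5.85 for SAA3, 4.01 for LCN2, 4.04 for RGS16 and 2.06 for IL13RA1. In the 10 largest falls it was -3.64 for CIDEC, -4.67 for FMOD, -3.21 for CFD, -4.62 for FAM107A, -3.76 for TNA, -4.14 for TINAG, -3.98 for BC064033, -2.61 for CLEC3B and -3.51 for WFDC3. These genes were chosen for their change in mono-cultures, which is the first term of the difference, so a large difference was favoured by the choice. SERPINA3F was undetected in -GFs mono-cultures, and CIDEC, FMOD, FAM107A and BC064033 in those with FGF2, so their differences rest on background values there. The co-cultures mix stromal and ES cell RNA, and the part of this mixture in the differences was not tested.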

How the results depend on the processing

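Of 412 listed or leading genes 163 were called, and 127 of these in every setting that tested them. No change of these genes reversed its sign past the threshold (0). A further 36 lost the call in at least 1 setting, 27 of them without at least 1 array. PLAUR, JAG1, PDGFC, LMOD1, CCNB1, AURKA, SC5D, TNFRSF11B and PHEX lost it only in the 2 settings without background correction. FGF2 vs -GFs called 836 genes, 531 with quantile normalization and no background correction, 530 with a cubic spline and no background correction, 544 with detection on all 6 arrays and 3290 with no fold threshold. The range was 777 to 906 without any 1 array, with at least 723 of the 836 shared. FGF2 vs BMP4 called 891, and under the same first 2 settings 587 and 586, 3472 with no fold threshold and 843 to 928 without any 1 array. The difference between culture types was called for 869, then 534, 533, 2126 and 789 to 908. Median scaling moved its share of higher calls from 50.2% to 42.9%. The cause of the lower counts without background correction was not tested. Same-numbered -GFs and FGF2 arrays deviated together at r of 0.17, 0.0735 and 0.171, and each array correlated best with its own number. The labels do not say that same-numbered wells shared a day or passage, and the main fit used no pairing. With the replicate number as a block, 845 genes were called for FGF2 vs -GFs, all 836 among them, 895 for FGF2 vs BMP4 and 944 for the difference.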

Other observations

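Some called genes outside the lists, chosen after their values were seen, are given as values only. The AP-1 subunits JUN and JUNB changed by 2.23 and 2.22, and TNFSF11, the osteoclast factor RANKL, by 2.11. HAS2, a hyaluronan synthase, changed by 2.32 and the proteoglycan VCAN by 2.34. The placental hormone genes PRL2C2 and PRL2C4, near copies of PRL2C3, changed by 3.28 and 3.44. Lower were NPR3 (-3.06), a natriuretic peptide clearance receptor, MGLL (-2.69), a monoglyceride lipase, CDO1 (-2.83), a cysteine dioxygenase, and the fibroblast protease FAP (-2.35). The stromal marker THY1 changed by -1.11 (adjusted p 0.00453).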
